A study of Homo sapiens with 8 samples.

Results

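The genes described here govern the decision of a cell to leave the G1 phase and copy its DNA. They are the D cyclins CCND1, CCND2 and CCND3, the CDK inhibitors CDKN1B, CDKN1C, CDKN2C and CDKN2D, and the RB family genes RB1, RBL1 and RBL2. The members were all probe sets whose only symbol in the annotation of the array was one of these 10 genes. They came to 24 probe sets of 9 genes, out of 54675 probe sets on the array, of which 41097 carried 1 symbol and stood for 19775 genes. CDKN2C was not analysed here.

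D cyclins bind the kinases CDK4 and CDK6, and the active complexes phosphorylate the RB family, which are known as the pocket proteins. An unphosphorylated pocket protein holds E2F transcription factors and keeps the genes of DNA replication low, and phosphorylation releases them. The inhibitors act at 2 places. INK4 proteins, such as p18 from CDKN2C and p19 from CDKN2D, block CDK4 and CDK6 alone, whereas the CIP/KIP proteins p27 from CDKN1B and p57 from CDKN1C also block CDK2 with cyclin E or cyclin A. In prostate epithelium cyclin D1 is known as a mitogen sensor that also binds the androgen receptor, and loss of p27 protein is a known mark of prostate cancer.

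The mRNA of a pair of established prostate carcinoma lines, LNCaP, which was grown out of a lymph node metastasis, and 22Rv1, which was grown out of a relapsed CWR22 xenograft, was hybridized to Affymetrix U133 Plus 2.0 arrays. Each line gave 4 arrays from 4 plates. One plate was left untreated, and a second received 10 mM caffeine, the inhibitor of nonsense-mediated mRNA decay (NMD) in this study, for 4 hours. The other plates received the same caffeine step and then a second step of 4 hours with actinomycin D at 2 μg/ml, a blocker of transcription, either with 10 mM caffeine or alone. Every group was 1 plate of 1 line, so a difference between 2 arrays has no replicate check. The purpose of the actinomycin D step was to see whether transcripts were lost at a different rate with NMD inhibited and with NMD released.

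All values are log2 signals (gcRMA) normalized to the same distribution on all 8 arrays, with a median of 2.75, so a signal gives a transcript relative to the others on its array and a decline common to the whole mRNA pool leaves no trace. In bulk RNA of this kind, fewer cells that express a gene and less mRNA per cell cannot be told apart. A signal of 4 or more was taken as detected, and 20975 probe sets (38.4%) reached it on each array. The 18S rRNA probe sets had a mean signal of 11.71 in LNCaP after actinomycin D with caffeine, against 4.09 to 6.25 on the other LNCaP arrays and 5.09 to 7.08 on the 22Rv1 arrays. Of 9 luminal prostate markers listed, the 7 with a probe set were detected on all 8 arrays, with a summed signal of 63.3 to 70.0 in LNCaP and 67.3 to 68.6 in 22Rv1. The 2 basal markers with a probe set and 3 leukocyte markers were under 4 on every array. Of 4 stromal markers, 2 were under 4 on every array, and the summed stromal signal was 13.3 to 17.6 in LNCaP and 17.3 to 20.4 in 22Rv1. Single markers moved more than these sums. DCN had 2.27 to 4.19 in LNCaP and 5.56 to 7.06 in 22Rv1. COL1A1 had 8.39 after caffeine against 8.50 untreated in LNCaP and 8.65 against 5.86 in 22Rv1, with 5.29 and 5.82 in LNCaP and 8.49 and 7.96 in 22Rv1 after actinomycin D with caffeine and alone. Of the luminal markers, KRT8 had 8.90 to 9.91 in LNCaP and 12.07 to 12.48 in 22Rv1, and TMPRSS2 had 8.70 to 10.83 in LNCaP and 7.05 to 7.55 in 22Rv1. The part of the rRNA signal and of these markers in the results below was not tested.

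Of the 24 probe sets, 14 reached a signal of 4 on at least 1 array. The other 10 stayed under 4 on all arrays, with 2.91 as their highest signal. They include all 4 probe sets for CCND2, which encodes cyclin D2 (chr12:4273762-4305353 in GRCh38.p14), so no level and no difference is given for that gene. The remaining undetected probe sets belong to CCND3, CDKN1C, CDKN2D, RB1 and RBL1, each of which has another probe set that was detected. In all, 13 probe sets of 8 genes had a mean of at least 4 over the 8 arrays and entered the limma fit, which covered 21453 probe sets with terms for cell line and treatment.

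**Figure D1:**
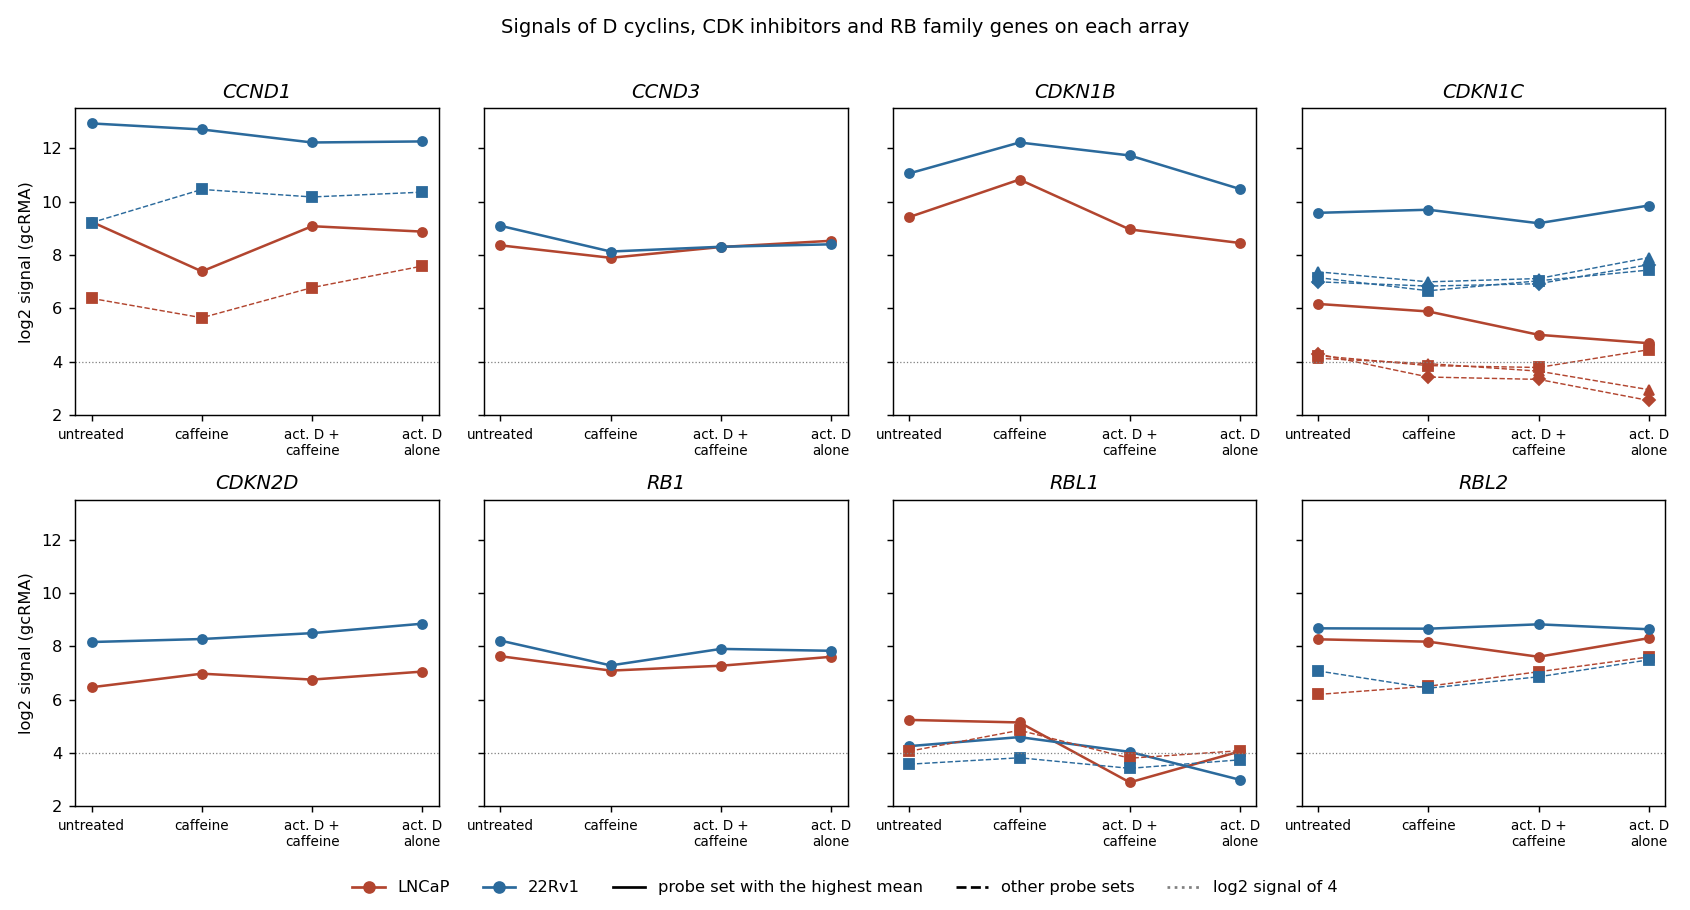
Log2 signal (gcRMA, vertical axis) of the detected probe sets of 8 genes on each of the 8 arrays, with the 4 treatments along the horizontal axis, LNCaP in red and 22Rv1 in blue. Solid lines join the probe set with the highest mean of a gene, dashed lines its other detected probe sets, and the dotted line is the signal of 4. CCND1, CDKN1C and CDKN2D lie lower in LNCaP under all treatments, and CDKN1B peaks on the caffeine array of both lines.

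The widest contrast among these genes was between the lines. CCND1, CDKN1B, CDKN1C and CDKN2D were all lower in LNCaP than in 22Rv1, by 3.10-fold to 17.7-fold for the probe set with the highest mean of each gene. CCND3 and RBL1 did not pass the test, RB1 missed it narrowly, and RBL2 passed it with a small difference on 1 of its 2 probe sets. In the limma fit 9 of 13 probe sets were called lower in LNCaP at an adjusted p under 0.05 and 0 higher. Over all probe sets tested, 53.6% were called in either direction and 26.3% lower in LNCaP. The probe sets 213182_x_at and 219534_x_at of CDKN1C passed the filter only through 22Rv1 and RBL1 205296_at only through LNCaP, so the count of 9 is no support for a direction. Of the 10 member probe sets that averaged 4 or more in each line, 7 were called lower in LNCaP and 0 higher, against 24.3% lower of 19305 such probe sets, with a median difference of -1.80 for the 10 and 0.02 for all of these. The second filter was chosen after seeing the data. The 7 are the tested probe sets of CCND1, CDKN1B and CDKN2D, 213348_at and 216894_x_at of CDKN1C and 212331_at of RBL2. Probe sets of the same gene are not independent, so the counts and the median of -1.80 do not weigh the genes equally. RBL2 was called in 6 of the 14 alternatives described at the end. The 4 arrays of a line are the same cells under different treatments. These p-values therefore measure how far the line difference varies from treatment to treatment, and not the spread between cultures. In the treatment comparisons below, the 2 lines were the only replicates.

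CCND1 (chr11:69641156-69654474) encodes cyclin D1, the D cyclin that growth factor signals raise in most epithelia. In LNCaP its probe set 208712_at had signals of 9.24 untreated, 7.38 after caffeine, 9.08 after actinomycin D with caffeine and 8.88 after actinomycin D alone. In 22Rv1 the same treatments gave 12.93, 12.71, 12.22 and 12.26. The highest LNCaP array thus stood well under the lowest 22Rv1 array, and LNCaP also varied more, with a mean of 8.65 ± 0.85 against 12.53 ± 0.35 in 22Rv1 (SD over 4 treatments). The fitted difference was -3.88 (SE 0.37, limma adjusted p = 0.000532), or 14.8-fold lower in LNCaP. The second probe set, 208711_s_at, gave a difference of -3.46 (SE 0.36, limma adjusted p = 0.000708). Its signals ran from 5.65 to 7.58 in LNCaP and from 9.21 to 10.46 in 22Rv1, so these did not overlap either.

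CDKN1C (chr11:2883218-2885775) encodes p57, an imprinted CIP/KIP inhibitor best known for stopping the cycle in developing tissues. Its probe set 213348_at had signals of 6.16, 5.88, 5.01 and 4.69 in LNCaP, in the order untreated, caffeine, actinomycin D with caffeine and actinomycin D alone. In 22Rv1 the signals were 9.58, 9.70, 9.19 and 9.86, so that all 4 treatments lay far above LNCaP. The difference was -4.15 (SE 0.30, limma adjusted p = 0.000185), which is 17.7-fold lower in LNCaP and the largest among the 13 probe sets. The probe sets 216894_x_at, 213182_x_at and 219534_x_at gave differences of -2.99, -3.68 and -3.70, and the suffix of their names marks probes that can also bind other transcripts. In LNCaP 213182_x_at and 219534_x_at averaged 3.66 and 3.40, under the floor, so both entered the fit only through 22Rv1 and had to differ. The fifth probe set, 219533_at, sat at the lowest value of the arrays, 2.27, in every sample.

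CDKN2D (chr19:10566460-10568979) encodes p19, the INK4 inhibitor whose level is known to change through the cell cycle. Probe set 210240_s_at had signals of 6.46, 6.97, 6.75 and 7.05 in LNCaP, against 8.16, 8.27, 8.49 and 8.85 in 22Rv1 in the same order of treatments. The lines did not overlap, and within a line the 4 signals lay close together, with SDs of 0.26 in LNCaP and 0.30 in 22Rv1. The difference was -1.63 (SE 0.15, limma adjusted p = 0.000473), or 3.10-fold lower in LNCaP.

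CDKN1B (chr12:12717368-12722369) encodes p27, which binds and blocks CDK2 with cyclin E and whose protein is removed by the SKP2 ubiquitin ligase. It has 1 probe set, 209112_at, with signals of 9.42, 10.83, 8.96 and 8.45 in LNCaP, again from untreated through caffeine and actinomycin D with caffeine to actinomycin D alone. In 22Rv1 they were 11.06, 12.22, 11.73 and 10.47. Under each treatment LNCaP was the lower line, but the caffeine array of LNCaP lay above the actinomycin D alone array of 22Rv1, so the ranges overlap. The difference was -1.96 (SE 0.25, limma adjusted p = 0.00147), or 3.88-fold lower in LNCaP.

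Since CDKN1B had the largest fitted difference after caffeine and after actinomycin D alone, the stretch just upstream of its start site is shown here, from the RefSeq promoter table of GRCh38.p14 (chr12:12717168-12717367, plus strand). Capitals mark CCAAT boxes at -174 and -50 from the start site and a GC box at -71, which do not overlap each other.
CDKN1B: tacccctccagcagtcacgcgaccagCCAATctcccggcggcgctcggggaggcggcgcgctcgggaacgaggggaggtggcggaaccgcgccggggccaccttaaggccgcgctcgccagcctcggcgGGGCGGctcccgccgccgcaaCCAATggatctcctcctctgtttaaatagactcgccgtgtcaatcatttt
Both strands of the 250 bases before each start site were searched for exact letters. The CCAAT box (CCAAT) was in 32.0% of 35116 promoters in the table and the GC box (GGGCGG) in 42.6%, so neither is rare. Of 12 promoters that the table holds for 7 members (CCND3, CDKN1B, CDKN2C, CDKN2D, RB1, from a start inside the gene, RBL1 and RBL2), 6 had a CCAAT box and 6 had a GC box. The CRE (TGACGTCA, 1.65% of all promoters) and the FOXO motif (TGTTTAC, 2.98%) were in 0 of the 12. A match of letters is a description and not evidence of binding.

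Of the genes that hardly separated the lines, CCND3 (chr6:41934933-42050035) encodes cyclin D3. Its probe set 201700_at had signals of 8.36, 7.89, 8.30 and 8.53 in LNCaP, against 9.09, 8.13, 8.31 and 8.40 in 22Rv1. The lines overlapped, and the difference was -0.21 (95% interval -0.67 to 0.25, limma adjusted p = 0.377). This direction flips to 0.23 when the arrays are scaled on the poly-A controls.

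RB1 (chr13:48303751-48481890) encodes the founding pocket protein. Probe set 203132_at had signals of 7.63, 7.09, 7.27 and 7.60 in LNCaP, against 8.21, 7.28, 7.90 and 7.83 in 22Rv1. The lines overlapped, since the caffeine array of 22Rv1 lay below 2 LNCaP arrays, and the difference was -0.41 (95% interval -0.79 to -0.03, limma adjusted p = 0.0658). Under poly-A scaling the difference was 0.036.

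RBL2 (chr16:53434471-53491648) encodes p130, the pocket protein that with E2F4 and the MuvB complex keeps cycle genes low in resting cells. Its probe set 212331_at had signals of 8.26, 8.17, 7.61 and 8.30 in LNCaP, against 8.67, 8.66, 8.82 and 8.64 in 22Rv1. Every LNCaP array was below every 22Rv1 array, and the lowest was the one for actinomycin D with caffeine, which also had the high rRNA signal. The difference was -0.61 (SE 0.19, limma adjusted p = 0.0397), but without the 2 arrays of any 1 treatment the adjusted p was 0.0655 to 0.0921. The other probe set, 212332_at, ran from 6.19 to 7.60 in LNCaP and from 6.43 to 7.49 in 22Rv1, with a difference of -0.13 (95% interval -0.67 to 0.42, limma adjusted p = 0.653). Its sign flips under poly-A scaling, which moves the median of all probe sets by 0.45 in this comparison.

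RBL1 (chr20:36996349-37095997) encodes p107, the pocket protein that accumulates in cycling cells and whose own gene is a classic E2F target. Its promoter is shown because it alone among the 12 held the E2F letters searched (TTTCGCGC or TTTGGCGC), which were in 0.968% of all promoters. The 80 bases before the start site, on the minus strand (chr20:37095998-37096077), carry both forms, at -26 and -16, in capitals and without overlap.
RBL1: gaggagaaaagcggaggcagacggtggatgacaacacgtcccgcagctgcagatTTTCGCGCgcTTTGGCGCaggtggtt
Probe set 205296_at lay near the floor in both lines, with signals of 5.24, 5.14, 2.90 and 4.06 in LNCaP, against 4.25, 4.59, 4.04 and 2.99 in 22Rv1. The lines overlapped, with a difference of 0.36 (95% interval -0.59 to 1.32, limma adjusted p = 0.462). The lowest LNCaP value was on the array with the high rRNA signal, and without the 2 arrays of actinomycin D with caffeine RBL1 was called higher in LNCaP (0.87, limma adjusted p = 0.0199). The 22Rv1 mean of 205296_at over the 4 treatments was 3.97, under the floor. It entered the fit only through LNCaP, so this call is no support for a direction. A second probe set, 1555004_a_at, ran from 3.80 to 4.85 in LNCaP and from 3.42 to 3.82 in 22Rv1, and its mean was too low for the fit.

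**Figure D2:**
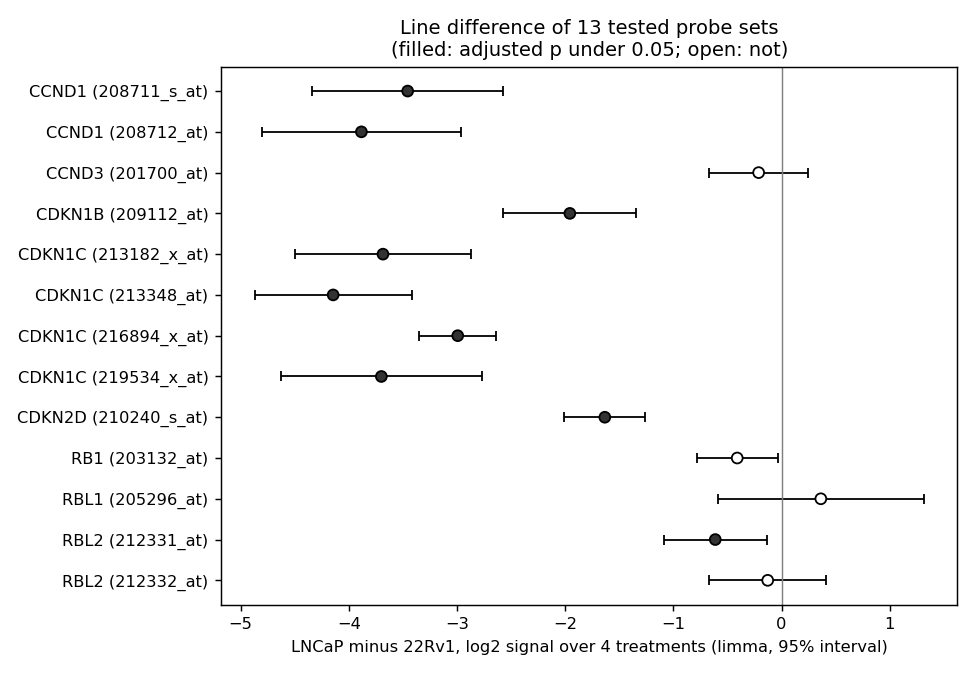
Difference LNCaP minus 22Rv1 in log2 signal over 4 treatments (horizontal axis) for the 13 probe sets tested, with bars for the 95% interval of the limma fit. Filled points passed an adjusted p of 0.05. The CCND1 and CDKN1C probe sets lie between -4.15 and -2.99, CDKN1B and CDKN2D near -1.96 and -1.63, and the CCND3 and RB family probe sets between -0.61 and 0.36, where the sign of CCND3 and RB1 flips under poly-A scaling.

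The ranges of the lines were also compared, with no test. In 8 of 13 probe sets every LNCaP array was below every 22Rv1 array, in 0 it was above, and in 5 the lines overlapped, while 23.6% of all probe sets tested had every LNCaP array below. Of the 10 with a mean of at least 4 in each line, 6 had every LNCaP array below, against 21.3% of all such probe sets. On the untreated arrays alone, 8 of the 14 detected probe sets were lower in LNCaP by 1 or more and 0 were higher by as much, against 39.5% of 22842 detected probe sets in either direction and 19.1% lower. These 8 are the detected probe sets of CCND1, CDKN1B, CDKN1C and CDKN2D. Probe sets of the same gene are not independent, so none of these counts is a count of genes. The nearest in the other direction was RBL1, at 5.24 in untreated LNCaP and 4.25 in untreated 22Rv1.

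Caffeine is the step that inhibits NMD, and mRNA that accumulates in it is either made faster or lost more slowly. CDKN1B had the largest fitted response among the members, with 10.83 after caffeine against 9.42 untreated in LNCaP and 12.22 after caffeine against 11.06 untreated in 22Rv1. The increase was thus 1.41 in LNCaP and 1.16 in 22Rv1. The fitted response was 1.28 (SE 0.35, 95% interval 0.41 to 2.15, unadjusted p = 0.0114), and after adjustment it did not pass (limma adjusted p = 0.163). Of 10 alternatives run for this value, 1 put it under 0.05. That was scaling on the hybridization controls, with a response of 1.60 and a limma adjusted p of 0.0431. This scaling also moves the median of all probe sets by 0.32.

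Of the D cyclins, CCND3 had 7.89 after caffeine against 8.36 untreated in LNCaP and 8.13 against 9.09 in 22Rv1. The fitted response of -0.72 (SE 0.26) did not pass the test (unadjusted p = 0.0358, limma adjusted p = 0.250). Under hybridization scaling the CCND3 difference was 0.044 in LNCaP and -0.83 in 22Rv1. CCND1 gave no single answer. Its probe set 208712_at had 7.38 after caffeine against 9.24 untreated in LNCaP, a difference of -1.86, and 12.71 against 12.93 in 22Rv1. Its probe set 208711_s_at had 5.65 against 6.37 in LNCaP but 10.46 against 9.21 in 22Rv1, where it was higher by 1.25. The fitted responses were -1.04 (SE 0.53, limma adjusted p = 0.374) and 0.26 (SE 0.51, limma adjusted p = 0.854).

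Of the RB family, RB1 was lower after caffeine in both lines, at 7.09 against 7.63 untreated in LNCaP and 7.28 against 8.21 in 22Rv1. The fitted response was -0.73 (SE 0.22, unadjusted p = 0.0151, limma adjusted p = 0.181). Under hybridization scaling the RB1 difference was -0.028 in LNCaP and -0.80 in 22Rv1. RBL1 and RBL2 showed little difference, at 0.12 (95% interval -1.23 to 1.47) and -0.05 (95% interval -0.73 to 0.62), and the RBL2 value turns to 0.19 under poly-A scaling and 0.27 under hybridization scaling. Of the other inhibitors, CDKN2D was at 0.31 (95% interval -0.22 to 0.84) and CDKN1C, whose sign flips under both scalings, at -0.08 (95% interval -1.11 to 0.94).

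In the limma fit 0 of 13 probe sets were called for the caffeine response, 3 had an unadjusted p under 0.05, and 0.0466% of all probe sets were called (9 higher and 1 lower, with 3794 at an unadjusted p under 0.05). Within a single line, and with no test, 2 of 14 detected probe sets differed by 1 or more in LNCaP, CDKN1B upwards and CCND1 208712_at downwards, against 11.6% of all detected probe sets. In 22Rv1 2 of 13 did, CDKN1B and CCND1 208711_s_at, both upwards, against 17.0% of all.

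The comparison of actinomycin D with caffeine and actinomycin D alone asks whether a transcript is lost at a different rate with NMD inhibited. CDKN1B was again the member with the largest fitted difference, at 8.96 with caffeine against 8.45 without it in LNCaP and 11.73 against 10.47 in 22Rv1. The differences were 0.51 in LNCaP and 1.26 in 22Rv1, and the fitted value was 0.88 (SE 0.35, unadjusted p = 0.0476, limma adjusted p = 0.625). RBL1 went opposite ways, at 2.90 with caffeine against 4.06 without it in LNCaP and 4.04 against 2.99 in 22Rv1. In each line one of these RBL1 signals was under the floor, and the LNCaP one was on the array with the high rRNA signal.

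The other members differed less. The RBL2 probe set 212332_at was lower with caffeine by similar amounts, -0.56 in LNCaP and -0.64 in 22Rv1, with a fitted value of -0.60 (SE 0.31, limma adjusted p = 0.722). The CDKN1C probe set 216894_x_at was at -0.53 (SE 0.21, unadjusted p = 0.0412, limma adjusted p = 0.609), whereas 213348_at of the same gene was at -0.18. CCND1 208712_at was at 0.08 (95% interval -1.21 to 1.38), CCND3 at -0.16 (95% interval -0.81 to 0.49), CDKN2D at -0.33 (95% interval -0.86 to 0.20) and RB1 at -0.13 (95% interval -0.66 to 0.40). The signs of CCND3, CDKN2D, RB1 and CDKN1C 213348_at flip under poly-A scaling, which moves the median of all probe sets by 0.40. In the limma fit 0 of 13 probe sets were called and 2 had an unadjusted p under 0.05, and 0.00% of all probe sets were called, with 1712 at an unadjusted p under 0.05. A difference of 1 or more was seen for RBL1 alone in LNCaP (1 of 12 detected probe sets, against 12.1% of all) and for CDKN1B and RBL1 in 22Rv1 (2 of 13, against 5.75% of all). The value without the LNCaP array of high rRNA signal cannot be had, since that array is 1 side of the LNCaP comparison.

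**Figure D3:**
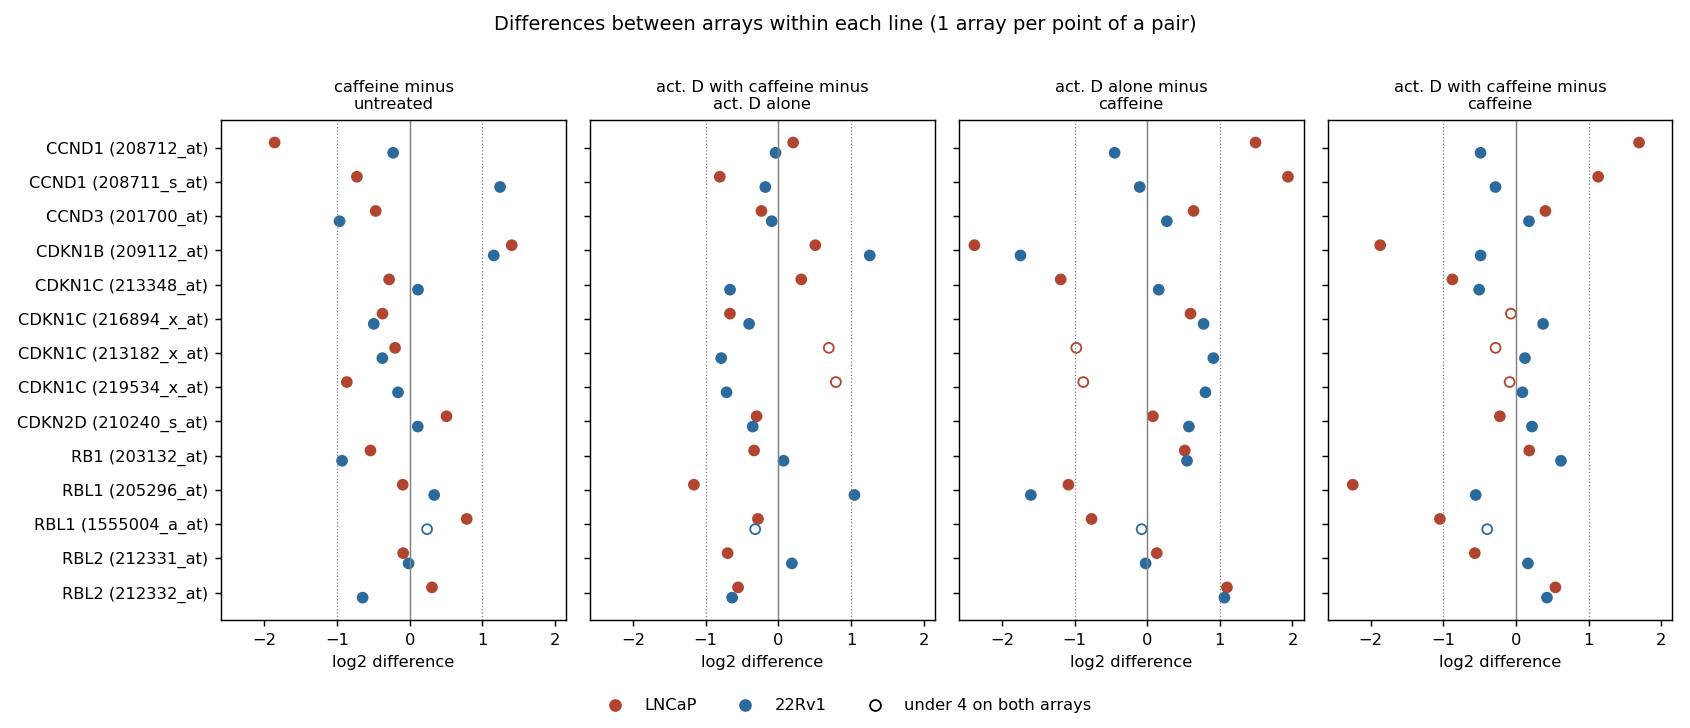
Log2 differences between 2 arrays of a line (horizontal axes) for the 14 detected probe sets, in 4 panels, LNCaP in red and 22Rv1 in blue, with open points where both arrays were under 4 and dotted lines at -1 and 1. CDKN1B lies at 1.41 and 1.16 after caffeine and at -2.38 and -1.75 after actinomycin D alone. In the panels of actinomycin D against caffeine, CCND1 lies above 1 in LNCaP and under 0.5 from 0 in 22Rv1. Under poly-A scaling its LNCaP values go to -0.034 for 208712_at with actinomycin D alone. They go to -0.0061 for 208711_s_at with actinomycin D and caffeine.

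When transcription was blocked and caffeine removed, CDKN1B had the largest difference among the members. After actinomycin D alone its signal was 8.45 in LNCaP, against 10.83 after caffeine, and 10.47 in 22Rv1, against 12.22 after caffeine. On these arrays CDKN1B was also below its untreated signals of 9.42 in LNCaP and 11.06 in 22Rv1. The fitted difference was -2.06 (SE 0.35, 95% interval -2.93 to -1.19), or 4.18-fold lower, with an unadjusted p of 0.00119 and a limma adjusted p of 0.0502, just over the threshold. Of 10 alternatives run for this value, 6 put it under 0.05, and the adjusted p ranged from 0.00133 to 1. Since the arrays were normalized to 1 distribution, the value says that CDKN1B mRNA was lower relative to the other mRNAs that were left.

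RBL1 was also lower, at 4.06 after actinomycin D alone against 5.14 after caffeine in LNCaP and 2.99 against 4.59 in 22Rv1, with a fitted difference of -1.34 (SE 0.55, limma adjusted p = 0.231). The RBL2 probe set 212332_at was higher relative to the other mRNAs, at 7.60 against 6.50 in LNCaP and 7.49 against 6.43 in 22Rv1. Its fitted difference was 1.08 (SE 0.31, unadjusted p = 0.0139, limma adjusted p = 0.133), whereas 212331_at of the same gene was at 0.06 (95% interval -0.62 to 0.73). The sign of 212332_at flips to -0.43 in LNCaP and -0.11 in 22Rv1 when the arrays are scaled on the poly-A controls. RB1 was at 0.53 (SE 0.22, unadjusted p = 0.0498, limma adjusted p = 0.230) and flips to -0.82 under that scaling.

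CCND1 differed by 1 or more in LNCaP. There 208712_at had 8.88 after actinomycin D alone against 7.38 after caffeine, and 208711_s_at had 7.58 against 5.65. In 22Rv1 the same probe sets had 12.26 against 12.71 and 10.36 against 10.46. Whether the lines differ in this was not tested, and in LNCaP 208712_at goes to -0.034 and 208711_s_at to 0.41 under poly-A scaling. CDKN1C 213348_at had 4.69 against 5.88 in LNCaP and 9.86 against 9.70 in 22Rv1, and the CDKN1C probe set 216894_x_at was higher by 0.69 in the fit (SE 0.21, unadjusted p = 0.0160, limma adjusted p = 0.142), a sign that flips to -0.93 in LNCaP and -0.40 in 22Rv1 under poly-A scaling.

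The limma fit called 0 of 13 probe sets for actinomycin D alone against caffeine, with 4 at an unadjusted p under 0.05, against 2.34% of all probe sets (102 higher and 399 lower, with 4663 at an unadjusted p under 0.05). In LNCaP 6 of 12 detected probe sets differed by 1 or more, the 2 of CCND1 and RBL2 212332_at upwards and CDKN1B, CDKN1C 213348_at and RBL1 205296_at downwards, against 21.1% of all. In 22Rv1 3 of 13 did, RBL2 212332_at upwards and CDKN1B and RBL1 205296_at downwards, against 15.4% of all. Poly-A scaling moves the median of all probe sets by -1.35 in this comparison. Under it 0 of these probe sets were higher by 1 or more and 7 were lower in LNCaP, and 0 were higher and 6 lower in 22Rv1. It moves every probe set by -1.53 in LNCaP and -1.18 in 22Rv1. The share of all probe sets under it was not counted, so these counts are no result about the members.

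With caffeine left in during the block, the differences from the caffeine arrays were smaller for CDKN1B in 22Rv1. CDKN1B had 8.96 after actinomycin D with caffeine against 10.83 after caffeine in LNCaP, and 11.73 against 12.22 in 22Rv1. The fitted difference was -1.18 (SE 0.35, 95% interval -2.05 to -0.31, unadjusted p = 0.0162, limma adjusted p = 0.302). RBL1 had 2.90 against 5.14 in LNCaP and 4.04 against 4.59 in 22Rv1, with a fitted difference of -1.40 (SE 0.55, unadjusted p = 0.0440, limma adjusted p = 0.393). The LNCaP array of actinomycin D with caffeine is the one with the high rRNA signal. On it RBL1 205296_at and 1555004_a_at, at 2.90 and 3.80, were under the floor. CCND1 208712_at had 9.08 against 7.38 in LNCaP and 12.22 against 12.71 in 22Rv1, and the LNCaP difference of its 208711_s_at, 1.13, goes to -0.0061 under poly-A scaling. In the fit 0 of 13 probe sets were called, with 2 at an unadjusted p under 0.05, against 0.00% of all probe sets and 2628 at an unadjusted p under 0.05. In LNCaP 5 of 11 detected probe sets differed by 1 or more (the 2 of CCND1 upwards, CDKN1B and the 2 of RBL1 downwards), against 17.4% of all, and in 22Rv1 0 of 13 did, against 10.3% of all. Under poly-A scaling 0 were higher and 6 lower in LNCaP, and 0 higher and 5 lower in 22Rv1. That scaling moves every probe set by -1.14 in LNCaP and -0.77 in 22Rv1, and the share of all was not counted. The caffeine response and both comparisons of actinomycin D against caffeine use the same caffeine arrays, so they are not independent.

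The kinases that the D cyclins drive were also lower in LNCaP. CDK4 had signals of 11.25, 10.51, 10.52 and 10.55 in LNCaP, against 12.30, 11.42, 11.62 and 11.84 in 22Rv1, and the lines did not overlap. Its line difference was -1.09 (SE 0.14, limma adjusted p = 0.00156). CDK6 was under the floor on all LNCaP arrays, at 2.27 to 2.53, and had 4.95 to 6.31 in 22Rv1, so it entered the fit only through 22Rv1, and its fitted difference of -3.25, counted with the others, is given as a description.

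The other genes of the pathway went both ways between the lines. Of 44 tested genes in the lists, out of 47 listed, 8 were higher and 10 lower in LNCaP, with a median of -0.01. Over all probe sets tested, 53.6% were called in either direction and 26.3% lower in LNCaP. Calls are thus common, and the counts of single lists below stand beside the same shares. Of the 42 with a mean of at least 4 in each line, 8 were higher and 9 lower. Of all such probe sets, 24.3% were called lower in a fit of their own. Of the other CDK inhibitors tested, CDKN2A, which encodes the INK4 inhibitor p16 and, in another reading frame, ARF, was lower (-1.96, limma adjusted p = 0.000220), CDKN3 was higher (0.65, limma adjusted p = 0.0192), and CDKN1A, which encodes p21, was at -0.30 (limma adjusted p = 0.204). Of 7 genes of cyclin E, CDK2 and its activators 3 were higher and 1 lower. CCNE1, the gene of cyclin E1, was higher by 1.84, CCNH by 1.86 and CDK7 by 0.42, whereas CDK2 was lower, at -2.43 (limma adjusted p = 0.000186, 0.000560, 0.0389 and 0.000905 in that order). Of 10 E2F and DP factors 4 were lower, E2F2 at -2.01, E2F7 at -0.87, TFDP1 at -0.67 and E2F1 at -0.64, and 1 was higher, E2F3 at 1.26. LIN52 at 0.76 was the 1 gene called among 4 MuvB partners tested, with LIN9, LIN37 and RBBP4 at -0.29, -0.29 and -0.01. Poly-A scaling moves the line difference up by 0.45, more than the size of these negative values and of that of CDKN1A. Their signs therefore depend on the scaling. Of 8 ubiquitin ligase subunits listed, CKS1B was lower at -0.99 and FBXO4 higher at 0.94, and SKP2 and CUL1 at 0.52 and 0.19 did not pass the test. Of 11 E2F target genes CCNE1 and TK1 were higher and RRM2 was lower, at -0.70, while CCNA2 at -0.50 did not pass.

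**Figure D4:**
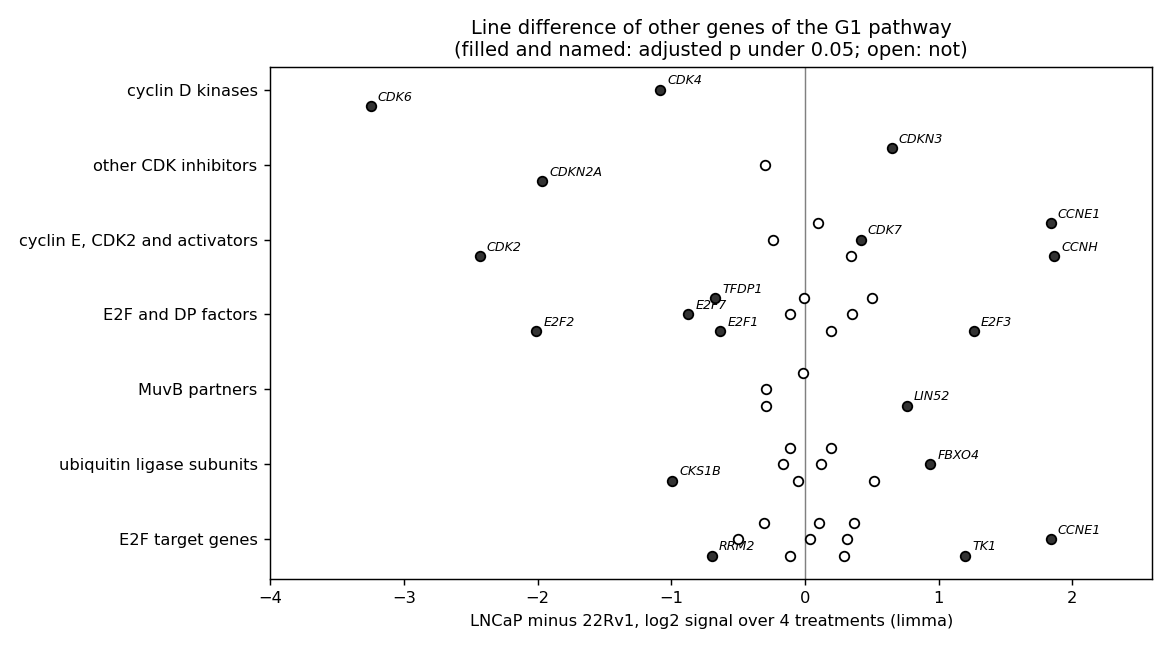
Difference LNCaP minus 22Rv1 in log2 signal over 4 treatments (horizontal axis, limma) for 44 other genes of the G1 pathway, by list, each gene by the probe set with its highest mean, and CCNE1 in 2 lists. Filled and named points passed an adjusted p of 0.05. CDK4, CDK6, CDKN2A and CDK2 lie from -3.25 to -1.09, CCNE1 and CCNH near 1.84 and 1.86, and the E2F target genes lie on both sides of 0.

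After caffeine 0 of the 44 genes were called and their median was -0.30, against -0.03 for all probe sets tested. The largest response was that of CDKN1A, the CIP/KIP relative of CDKN1B. Its signals were 7.92 after caffeine against 9.60 untreated in LNCaP and 8.65 against 9.67 in 22Rv1, with a fitted response of -1.35 (SE 0.25, unadjusted p = 0.00179, limma adjusted p = 0.0932). So CDKN1A was lower on both caffeine arrays, on which CDKN1B was higher. Of the other inhibitors CDKN3 was at -0.29 and CDKN2A at -0.23. Hybridization scaling moves the caffeine response up by 0.32, more than the size of either, so their signs depend on the scaling. Of the kinases CDK4 was at -0.81 (limma adjusted p = 0.138) and CDK6 at -0.45. In the cyclin E and CDK2 list CCNE2 was at -0.91 (limma adjusted p = 0.122), CDK7, which activates CDKs, at 0.81 (limma adjusted p = 0.126), CDC25A at -0.59 and CDK2 at -0.51. Of the E2F and DP factors TFDP1 was at -0.73 (limma adjusted p = 0.172), E2F5 at -0.59, E2F8 at -0.58 and E2F3 at -0.55. The MuvB partners ranged from RBBP4 at -0.79 through LIN37 at -0.42 and LIN9 at -0.13 to LIN52 at 0.21. Of the ubiquitin ligase subunits CUL1 was at -0.87 (limma adjusted p = 0.164), SKP2, which binds p27, at -0.57, FBXW7 at -0.48 and FBXO31 at 0.43. Of the E2F target genes CDC6 was at -0.91 (limma adjusted p = 0.125), TK1 at -0.78, PCNA at -0.68 and MCM3 at -0.52. Some of these fitted values join lines that were far apart. FBXO31 was at -0.30 in LNCaP and 1.16 in 22Rv1, E2F8 at 0.03 and -1.18, and RBBP4 at -0.14 and -1.43. Whether the lines differ in this was not tested.

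After actinomycin D alone against caffeine, 3 of the 44 genes were called, all lower, against 2.34% of all probe sets, of which 399 were lower and 102 higher. CDC25A, the phosphatase that activates CDK2, was lower by 1.89 (SE 0.24, limma adjusted p = 0.0309), CCNE1 by 1.55 (SE 0.19, limma adjusted p = 0.0281) and E2F6 by 2.49 (SE 0.39, limma adjusted p = 0.0417). These values are relative to the other mRNAs that were left. CCNE1 had 6.65 after actinomycin D alone against 8.23 after caffeine in LNCaP and 4.88 against 6.41 in 22Rv1. E2F6 had 4.05 against 6.83 in LNCaP and 4.48 against 6.68 in 22Rv1, so its signals after actinomycin D alone were near the floor. The difference of CDKN1B, -2.06, was in the same range on the log2 scale. In both comparisons with actinomycin D and caffeine together, 0 of the 44 genes were called.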

How the data were processed

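RNA from 4 plates of LNCaP and 4 plates of 22Rv1 cells was hybridized to 8 arrays by the authors. The authors deposited log2 signals, made with gcRMA by background correction, quantile normalization and a summary over the probes of each set. RMA and GCRMA stand in the submitters' processing notes, without versions. Depth is unknown for arrays, and their number limits the precision. The values were used as deposited, and 0 columns of per-sample values were left out.

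Genes were taken from the annotation of the array. Each member is given by the probe set of highest mean, with its others beside it, and each other gene of the pathway by that probe set alone. All members were named, and of the other genes of the pathway the 4 of each list with the largest line difference and the 4 with the largest caffeine response, beside counts. The members and lists were chosen with earlier results of these data known. Genes named after actinomycin D were chosen after their values were seen.

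Terms for line and treatment went into limma 3.58.1 (R 4.3.3), for probe sets whose mean reached 4, with 3 residual degrees of freedom and Benjamini-Hochberg adjustment over 21453 probe sets. The line difference is LNCaP minus 22Rv1. The fit was tested on simulated data. Alternatives were other filters, variance priors and model terms, scaling on 24 poly-A and 18 hybridization control probe sets, a floor of 4, the average over a gene's probe sets, leaving out treatments and, chosen after seeing the data, a mean of at least 4 in each line. Poly-A controls are RNAs added before labelling, and hybridization controls are added before hybridization. Promoter motifs were searched in the RefSeq promoters of GRCh38.p14. Figures were drawn with matplotlib 3.10.9 in python 3.11.15, and tables were made with pandas 2.3.3.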

Additional observations from a re-analysis of the deposited data

Results flagged for a closer look

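For 2 probe sets the lines went opposite ways by 0.5 or more each, with a detected signal in both lines. In neither case was this contrast between the lines tested. The response of CCND1 208711_s_at to caffeine was -0.73 in LNCaP and 1.25 in 22Rv1, which is -1.97 for LNCaP minus 22Rv1. The difference of RBL1 205296_at between actinomycin D with caffeine and actinomycin D alone was -1.16 in LNCaP and 1.05 in 22Rv1, or -2.21 for LNCaP minus 22Rv1, and 1 array of each pair was under a signal of 4.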

How the results depend on the processing

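Of 418 values of single genes recomputed under the alternatives, 367 kept their direction and their side of the threshold, 16 passed it only in the alternative, 8 no longer passed it and 27 changed sign. CCND1, CDKN1B, CDKN1C and CDKN2D were called lower in LNCaP under all 14 alternatives. The count for the line difference was 9 probe sets, 8 to 9 leaving out a treatment, 7 with a mean of at least 4 in each line (chosen after seeing the data), and 4 genes with the average over a gene's probe sets (gene means). All 8 weaker values were those of RBL2 in the line difference, with an adjusted p of 0.166 with no filter, 0.586 with poly-A scaling, 0.198 with hybridization scaling and 0.0568 with gene means, besides those leaving out a treatment. The caffeine response had 1 call under hybridization scaling, and actinomycin D alone against caffeine, with 0, had 1 with a mean of at least 6, a variance trend, a floor of 4 or gene means, 8 under poly-A and 2 under hybridization scaling. Actinomycin D with caffeine against caffeine had 5 under poly-A scaling. The shares of all probe sets under the scalings are not given here. The scaled counts, with those within a line below, are therefore no result about the members. The differences of 1 or more within a line went to 4 from 2 for caffeine in LNCaP (hybridization), to 0 from 1 for actinomycin D with and without caffeine in LNCaP (floor of 4 or poly-A), to 1 from 2 in 22Rv1 (floor of 4 or hybridization), to 6 from 3 for actinomycin D alone in 22Rv1 (poly-A, and to 7 from 6 in LNCaP) and to 5 from 0 for actinomycin D with caffeine in 22Rv1 (poly-A).

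Poly-A scaling turned these signs: in the line difference CCND3 (0.23) and RB1 (0.036), after caffeine CDKN1C (0.16) and RBL2 (0.19), with and without caffeine CCND3 (0.24), CDKN1C (0.22), CDKN2D (0.071), RB1 (0.27), RBL1 (0.34) and RBL2 (0.14), for actinomycin D alone CCND1 (-0.83), CCND3 (-0.90), CDKN2D (-1.02), RB1 (-0.82) and RBL2 (-1.30), and for actinomycin D with caffeine against caffeine CCND1 (-0.35), CCND3 (-0.66) and RB1 (-0.55). Hybridization scaling turned CDKN1C (0.24) and RBL2 (0.27) after caffeine, CDKN2D (-0.022) and RBL2 (-0.29) after actinomycin D alone and CCND3 (-0.081) after actinomycin D with caffeine. Gene means turned CCND1 (-0.21) with and without caffeine, CDKN1C (0.020) after actinomycin D alone, and CDKN2D (0.014) and RBL2 (0.14) after actinomycin D with caffeine. Scaling moves all probe sets, with median shifts of 0.45, 0.24, 0.40, -1.35 and -0.95 for poly-A and 0.21, 0.32, -0.02, -0.35 and -0.37 for hybridization controls, in the order line, caffeine, with and without caffeine, actinomycin D alone, actinomycin D with caffeine. The causes of the other changes were not tested. The fit already sets the lines side by side within each treatment and the treatments within each line, and the labels give no replicate numbers for any further pairing. A fit without one of the lines has no residual degrees of freedom.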
